A study of Mus musculus with 9 samples.

Results

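The 8 genes described here mark or specify the subtypes of olfactory interneurons, and their transcripts were followed through the adult neurogenic lineage and across age. They were Pax6, Meis2, Sp8, Sp9 and Etv1, which encode transcription factors, and Th, Calb1 and Calb2, which encode products of mature interneurons. The 8 genes were taken by name from the 27998 genes of each count table, and the list had been chosen by their known roles and selected on measured values of these same cells, their levels and detection over the 3 ages. Their levels between ages and classes are therefore given as a description, with no test.

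New interneurons of the mouse olfactory bulb (OB) arise from stem cells in the wall of the lateral ventricle, the subventricular zone (SVZ). The stem cells give rise to dividing progenitors, these to Dcx-positive neuroblasts that migrate to the OB, and the neuroblasts mature there into granule and periglomerular interneurons. Periglomerular cells are commonly divided into largely separate groups by tyrosine hydroxylase, calbindin or calretinin, and Pax6, Meis2, Sp8, Sp9 and Etv1 are known for roles in producing or specifying subsets of them.

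The study sorted GFP-positive cells from heterozygote Dcx-GFP mice, in which a Dcx-driven fluorescent protein marks the neuroblast stage and some neighbouring cells, at 3, 14 and 24 months of age. SVZ, OB and dentate gyrus (DG) were taken from the same pooled mice of each age, 4 to 5 in number, and 1 droplet library of 3′ tags was made for each region and age, 9 in all. The labels give these single ages, while the design text gives a range of months for each. No group had a second library, so the spread between pools is unknown, no comparison has a replicate check, and all intervals below are exact 95% intervals that cover counting error only.

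The deposited tables held 7402 cells, of which 4345 passed the quality limits, with 140 to 886 kept cells and a median of 4148 to 5512 unique molecular identifiers (UMIs) per kept cell in each library. A level is given as counts per 1000000 UMIs (CPM), the UMIs of a gene summed over the cells of a class in 1 library and divided by all UMIs of those cells. The cells fell into 25 clusters, made without the 8 genes and without the listed genes of the pathway. Clusters were named from 5 markers per class, and 4 clusters with 354 cells stayed unnamed. In build GRCm38 (GENCODE vM21) Sp9, Pax6 and Meis2 lie on chromosome 2, Calb1 on 4, Th on 7, Calb2 on 8, and Etv1 and Sp8 on 12. The 33 barcode sequences found in more than 1 library were shared by at most 3 cells between any 2 libraries.

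All 5 cycling markers were detected in the cycling-like cells of each SVZ library, with a summed level of 3369 CPM at 3 months, 4477 CPM at 14 months and 4196 CPM at 24 months. These cells numbered 134, 154 and 100, or 21.4%, 20.4% and 17.1% of the kept SVZ cells at the 3 ages. Neuroblast-like cells numbered 322, 436 and 317 in the SVZ and 47, 60 and 24 in the OB. No DG cell was in a cluster of that name. Dcx-positive DG cells were named otherwise, since cluster 11, named excitatory progenitor-like, had Dcx in 78.8% of its cells. It held 107, 19 and 4 DG cells at the 3 ages, and neuroblast was its second-ranked class. The SVZ neuroblast-like cells include cluster 19, which held 1, 18 and 27 SVZ cells at the 3 ages and 0 OB cells. A cluster led by DNA replication genes, with 73, 81 and 52 SVZ cells, was kept apart from the cycling-like and neuroblast-like classes. Neuron-like cells of the OB numbered 39, 40 and 16, and they came from 3 clusters. The cluster called the interneuron cluster here, with 32, 21 and 13 OB cells, had Gad1, which encodes a GABA-synthesizing enzyme, in 56 of its 66 OB cells. The other 2 clusters held 29 OB cells, and no cell of them had a UMI of Gad1.

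Pax6, a paired-box homeodomain factor required for dopaminergic periglomerular neurons, was lower at 14 and 24 months than at 3 months in the cycling-like and neuroblast-like cells of the SVZ. In cycling-like cells its level was 208 CPM at 3 months (182 to 235), 92.3 CPM at 14 months (77.4 to 109) and 85.3 CPM at 24 months (68.3 to 105). In neuroblast-like cells it was 160 CPM at 3 months (140 to 183), 41.0 CPM at 14 months (31.5 to 52.5) and 57.8 CPM at 24 months (45.8 to 72.0). The library of 3-month-old mice was the highest in both classes, and its interval did not overlap those of the later ages. The log2 ratio of 14 over 3 months was -1.17 in cycling-like cells (-1.48 to -0.86) and -1.97 in neuroblast-like cells (-2.40 to -1.56). The ratio of 24 over 3 months, which shares the 3-month library, was -1.28 (-1.65 to -0.93) and -1.47 (-1.86 to -1.09) in the same order. Between 14 and 24 months the neuroblast-like level differed by 0.50 on the log2 scale, with an interval from -0.00 to 1.00. Relative to cycling-like cells of its own library, Pax6 in neuroblast-like cells stood at -0.37 (-0.64 to -0.10), -1.17 (-1.62 to -0.73) and -0.56 (-1.02 to -0.10) on the log2 scale at 3, 14 and 24 months.

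**Figure D1:**
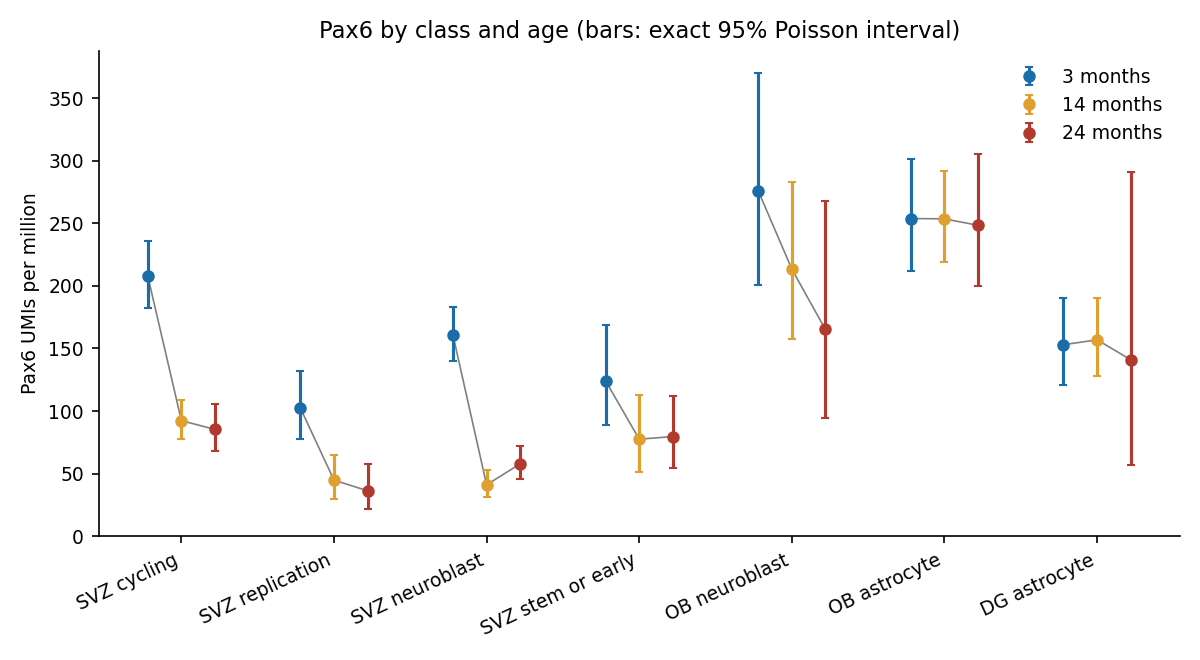
Pax6 level in CPM on the y axis for 7 classes of cells on the x axis, with 1 point per library, coloured by age, and exact 95% Poisson intervals as bars. The 3 SVZ classes of cycling-like, replication-cluster and neuroblast-like cells drop from 208, 102 and 160 CPM at 3 months to under 100 CPM at both later ages, while OB astrocyte-like cells sit between 248 and 254 CPM.

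The difference was found in single clusters as well as in the sums. In neuroblast-like cluster 3, led by Dlx6os1, Trpc4 and Tiam2, Pax6 was at 201 CPM at 3 months, 33.8 CPM at 14 months and 58.8 CPM at 24 months. In cluster 1 the levels were 144, 44.7 and 61.2 CPM, and in cluster 2, led by Prokr2 and Pbx3, they were 99.3, 39.5 and 55.8 CPM. Each of the 3 clusters was highest at 3 months. Cluster 2 rests on 24, 16 and 22 UMIs, under the minimum of 50 UMIs over 2 sums used below. Its ratio of 24 over 3 months was -0.83 (-1.74 to 0.06), with an interval that included no difference. The 2 larger cycling-like clusters held 210, 75.6 and 65.2 CPM (cluster 5, led by histone genes) and 218, 105 and 137 CPM (cluster 13, led by Tuba1c and Ccnb1). In cluster 13 the ratio of 24 over 3 months was -0.67 (-1.29 to -0.05), short of 2-fold. The replication cluster held 102, 44.8 and 36.3 CPM, and the stem or early progenitor-like cells 124, 77.5 and 79.6 CPM. The stem or early progenitor-like ratios of 14 and 24 months over 3 months were -0.68 (-1.44 to 0.06) and -0.64 (-1.35 to 0.06), and both intervals included no difference.

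Both the share of cells with a Pax6 UMI and the UMIs per such cell moved. Of the SVZ neuroblast-like cells, 29.5% had at least 1 UMI at 3 months, 10.6% at 14 months and 18.6% at 24 months, and the mean per detecting cell was 2.25, 1.37 and 1.34 UMIs. After each cell was thinned to 1500 UMIs, which left out 3, 11 and 2 shallower cells, the shares were 16.0%, 5.41% and 7.94%. In cycling-like cells, which were deeper with medians of 8780 to 9867 UMIs, the shares were 67.2%, 44.8% and 49.0% at full depth and 23.1%, 11.1% and 14.0% after thinning. As a level that free RNA could give, OPC-like cells of the SVZ had a Pax6 UMI in 3 of 25, 3 of 29 and 0 of 59 cells at the 3 ages. Their shares were 12.0%, 10.3% and 0%, the last of which allows up to 5.08%, at medians of 5215, 4684 and 5477 UMIs. At 14 months the neuroblast-like share of 10.6%, at a median of 3398 UMIs, was close to the OPC-like share, and by level Pax6 was at 41.0 CPM in neuroblast-like and at 21.7 CPM (4.47 to 63.3, from 3 UMIs) in OPC-like cells, with overlapping intervals.

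Astrocyte-like cells gave nearly the same Pax6 level at each age. In OB astrocyte-like cells Pax6 was at 254 CPM at 3 months (212 to 302), 253 CPM at 14 months (219 to 292) and 248 CPM at 24 months (200 to 305). In DG astrocyte-like cells it was at 153, 157 and 141 CPM, the last from 10 cells. OB neuroblast-like cells held 276 CPM at 3 months (200 to 370), 213 CPM at 14 months (157 to 283) and 165 CPM at 24 months (94.4 to 268), from 44, 48 and 16 UMIs. Their ratios over 3 months were -0.37 (-0.99 to 0.25) and -0.74 (-1.67 to 0.11), both with intervals that included no difference. Among these classes, ordered by level at 3 months, OB neuroblast-like, OB astrocyte-like and SVZ cycling-like cells came first, and neighbours in that order had overlapping intervals. SVZ neuroblast-like, DG astrocyte-like, stem or early progenitor-like and replication-cluster cells followed, again with each interval overlapping the next.

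Promoters of Pax6 and Sp8 are shown because these were the measured members lower at both later ages in SVZ cycling-like and neuroblast-like cells alike. That of Th is shown because it encodes the dopaminergic product. RefSeq start sites of build GRCm38.p6 were used, from 250 bases before to 50 bases after the start, and 6 of the 8 genes had an entry. The capitals mark, on either strand, the GC box GGGCGG, the TATA box TATAAA and the Meis motif TGACAG, the core of the sites that Meis proteins bind. No capitals of different motifs overlapped in the sequences shown. The windows lie at chr2:105682213-105682512 on the plus strand (Pax6, the second of 2 start sites), chr12:118846079-118846378 on the plus strand (Sp8, the first of 3) and chr7:142899946-142900245 on the minus strand (Th, the only one).
Pax6 second start site: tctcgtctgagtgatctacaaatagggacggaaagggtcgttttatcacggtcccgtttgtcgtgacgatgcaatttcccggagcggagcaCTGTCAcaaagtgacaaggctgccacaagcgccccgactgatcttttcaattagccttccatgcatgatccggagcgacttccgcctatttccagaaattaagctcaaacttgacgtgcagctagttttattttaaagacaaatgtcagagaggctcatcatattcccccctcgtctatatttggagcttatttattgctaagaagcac
Sp8 first start site: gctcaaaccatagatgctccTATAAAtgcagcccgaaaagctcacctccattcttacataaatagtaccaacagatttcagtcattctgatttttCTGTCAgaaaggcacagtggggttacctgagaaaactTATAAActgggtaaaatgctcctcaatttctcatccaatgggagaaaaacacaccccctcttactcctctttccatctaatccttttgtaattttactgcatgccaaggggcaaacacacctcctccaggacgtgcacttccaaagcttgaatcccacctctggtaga
Th start site: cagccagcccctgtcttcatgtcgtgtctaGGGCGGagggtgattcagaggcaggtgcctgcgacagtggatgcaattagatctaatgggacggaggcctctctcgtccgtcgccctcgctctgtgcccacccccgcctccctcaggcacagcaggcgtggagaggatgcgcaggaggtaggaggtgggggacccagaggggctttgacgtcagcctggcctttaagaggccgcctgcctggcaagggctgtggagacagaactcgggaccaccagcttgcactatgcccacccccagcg
The windows of Pax6 and Sp8 each held 1 Meis motif, the Sp8 window also held 2 TATA boxes, and the Th window held 1 GC box. For Pax6 and Sp8 the window shown was the only window of the gene with a Meis motif. The shares over all promoters below are therefore no even comparison for the windows shown. Of all 32851 promoters of the same length, 19.2% held the Meis motif, 13.6% the TATA box and 35.7% the GC box. The G+C content was 46.3% for this Pax6 window, 43.0% for Sp8 and 64.3% for Th, beside a median of 52.7% over all promoters. The other Pax6 window held none of the 3 motifs, and of the other Sp8 windows the second held 1 GC box and the third none of the motifs. Meis2 had a TATA box in its only window, Sp9 a GC box in its only window, and Etv1 a TATA box in 1 of 2 windows.

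Meis2, a homeodomain factor that acts with Pax6 in OB neurons, was read in nearly every neuroblast-like cell and differed by less than 2-fold between ages in the SVZ. In SVZ cycling-like cells it was at 455, 351 and 402 CPM at 3, 14 and 24 months. In SVZ neuroblast-like cells it was at 1623, 1544 and 1673 CPM, with a UMI in 98.1%, 97.5% and 98.4% of cells. The ratio of 14 over 3 months was -0.37 in cycling-like cells (-0.55 to -0.20) and -0.07 in neuroblast-like cells (-0.16 to 0.01). That of 24 over 3 months was -0.18 (-0.37 to 0.01) and 0.04 (-0.04 to 0.13). Within each SVZ library Meis2 was higher in neuroblast-like than in cycling-like cells, by 1.84 (1.70 to 1.98), 2.14 (2.00 to 2.28) and 2.06 (1.90 to 2.21) on the log2 scale.

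Sp8, a zinc-finger factor of the Sp family required for several interneuron subtypes, was lower at the later ages in SVZ neuroblast-like cells. Its level there was 303 CPM at 3 months (274 to 334), 223 CPM at 14 months (200 to 248) and 180 CPM at 24 months (158 to 204). The intervals overlapped only between 14 and 24 months. The ratios over 3 months were -0.44 (-0.65 to -0.23) and -0.75 (-0.99 to -0.52), both short of 2-fold. The thinned share of cells with a UMI was 29.8%, 27.1% and 27.0%, while the UMIs per detecting cell were 2.43, 1.79 and 1.72. Cluster 3 had 358, 253 and 187 CPM, cluster 1 had 245, 181 and 163 CPM, and cluster 2 had 286, 232 and 198 CPM, so each was highest at 3 months and lowest at 24 months. In cycling-like cells Sp8 was at 96.2, 58.4 and 71.6 CPM, with ratios over 3 months of -0.72 (-1.14 to -0.30) and -0.43 (-0.87 to 0.01). The 2 larger cycling-like clusters differed, with cluster 5 at 73.1, 37.8 and 81.0 CPM and cluster 13 at 179, 105 and 81.4 CPM. The ratio of 24 over 3 months was 0.15 in cluster 5 (-0.45 to 0.73). In cluster 13 it was -1.14 (-1.91 to -0.39), past 2-fold, from 25 and 42 UMIs.

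Sp9, the close relative of Sp8, stayed within 2-fold over age in the SVZ sums. It was at 469, 453 and 518 CPM in cycling-like cells and at 1088, 1207 and 1145 CPM in neuroblast-like cells. Ratios over 3 months lay between -0.05 and 0.15 in the 2 classes, and only that of 14 over 3 months in neuroblast-like cells, 0.15 (0.05 to 0.25), had an interval without 0. The 2 larger cycling-like clusters moved differently, with cluster 5 at 386, 271 and 373 CPM and cluster 13 at 683, 844 and 892 CPM. The ratio of 14 over 3 months was -0.51 in cluster 5 (-0.76 to -0.26) and 0.31 in cluster 13 (0.04 to 0.58), and that of 24 over 3 months was -0.05 (-0.31 to 0.21) and 0.39 (0.10 to 0.68). A Sp9 UMI was present in 92.5%, 93.8% and 91.8% of neuroblast-like cells, beside 12.0%, 6.90% and 10.2% of OPC-like cells of the same libraries. In OB astrocyte-like cells 0, 1 and 2 UMIs were read over 124, 185 and 88 cells.

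Etv1, an ETS factor found in subsets of periglomerular and granule neurons, was higher at 14 months in SVZ neuroblast-like cells. Its level was 264 CPM at 3 months (237 to 293), 346 CPM at 14 months (317 to 376) and 295 CPM at 24 months (267 to 325). The ratio of 14 over 3 months was 0.39 (0.19 to 0.59), and that of 24 over 3 months was 0.16 (-0.05 to 0.37). In cycling-like cells it was at 159, 152 and 169 CPM, with overlapping intervals. In the replication cluster it was at 75.9 CPM at 3 months (54.9 to 102), 159 CPM at 14 months (129 to 194) and 139 CPM at 24 months (108 to 176), and the ratio of 14 over 3 months was 1.07 (0.54 to 1.62). Etv1 was not limited to the neuronal lineage, since OPC-like cells of the 8 libraries with at least 5 such cells held 58.7 to 156 CPM.

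**Figure D2:**
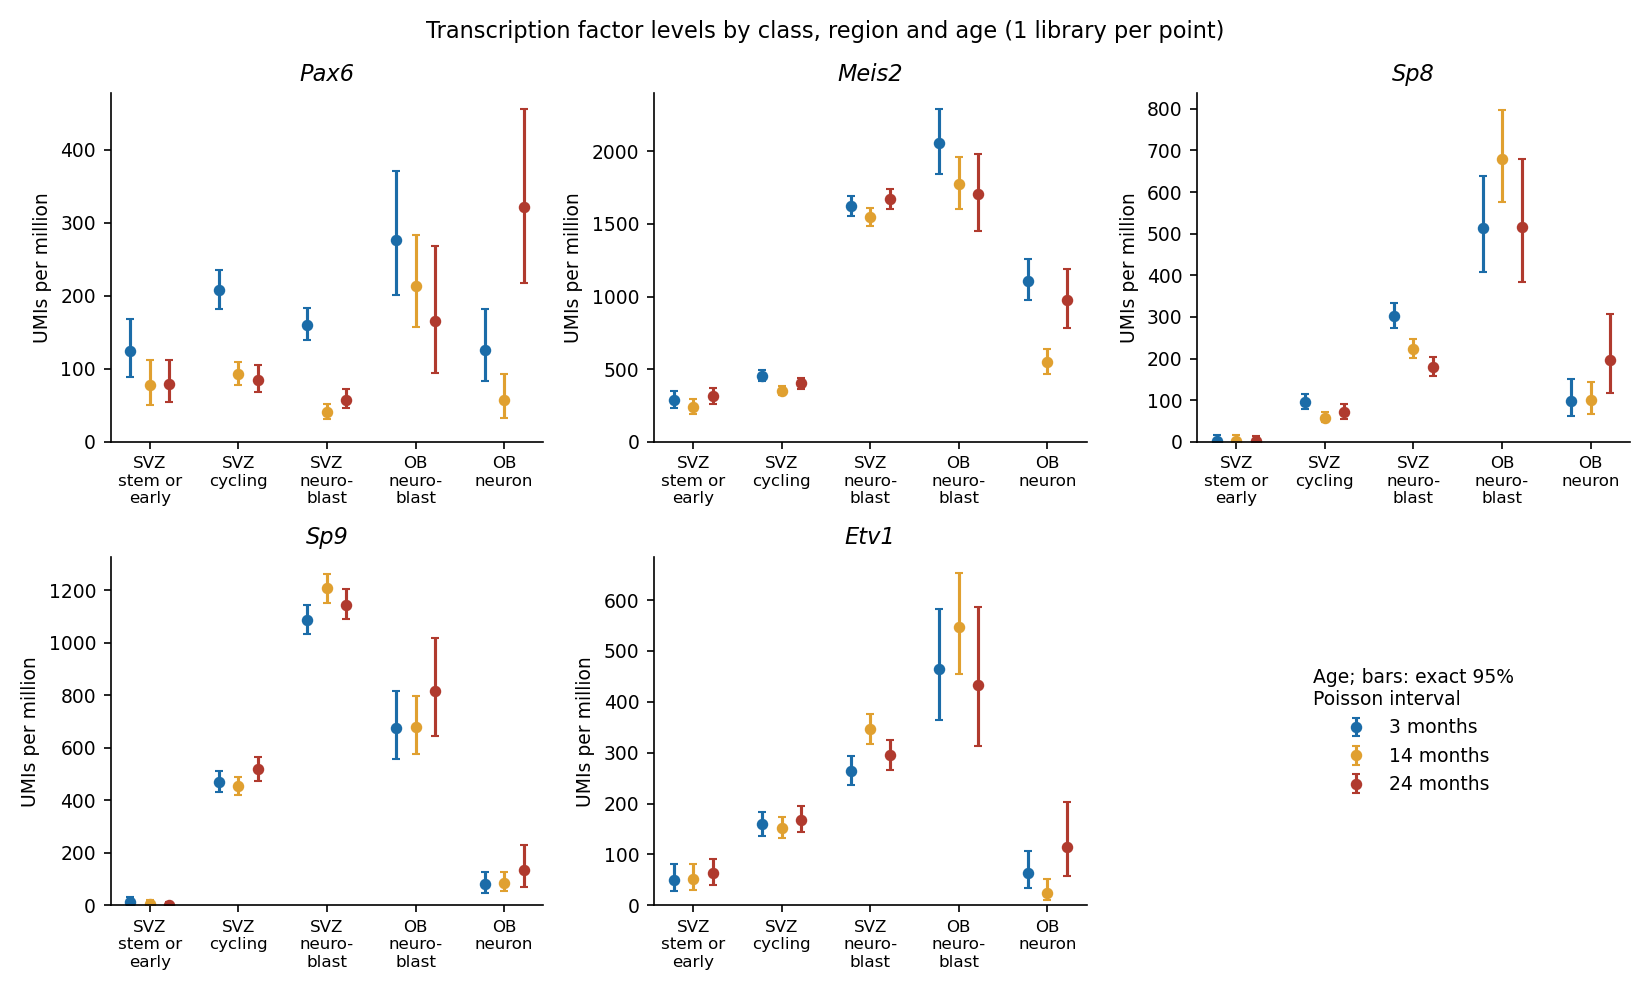
Levels of the 5 transcription factor genes in CPM (y axis), with 1 panel per gene and classes of cells on the x axis. The classes are SVZ stem or early progenitor-like, SVZ cycling-like, SVZ neuroblast-like, OB neuroblast-like and OB neuron-like cells. Each has 1 point per library, coloured by age (3, 14 and 24 months), with exact 95% Poisson intervals as bars. Pax6 goes from 160 to 41.0 and 57.8 CPM in SVZ neuroblast-like cells and Sp8 from 303 to 223 and 180 CPM, while Meis2 stays between 1544 and 1673 CPM.

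Over the class sums, Pax6 was the only measured member past 2-fold between ages in SVZ cycling-like or neuroblast-like cells. Th, Calb1 and Calb2 had too few UMIs in these cells to be measured. Here a gene counted as measured if the 2 sums together held 50 UMIs or more. Of the 5 members measured in cycling-like cells, 1 was lower at 14 than at 3 months, where 1.33% of 6095 genes were past 2-fold in either direction, and 1 at 24 over 3 months, where 1.73% of 5651 genes were. In neuroblast-like cells 1 of 5 was lower at 14 over 3 months (1.29% of 6292 genes) and at 24 over 3 months (1.5% of 6282 genes), and 0 of 5 were past 2-fold at 24 over 14 months (1.77% of 6438 genes). In OB neuroblast-like cells 0 of 5 were past it at 14 over 3 months (1.17% of 1287 genes) and 0 of 5 at 24 over 3 months (2.59% of 848 genes). Since these ratios were among the values that chose the genes, nothing follows from the counts about the members as a set.

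**Figure D3:**
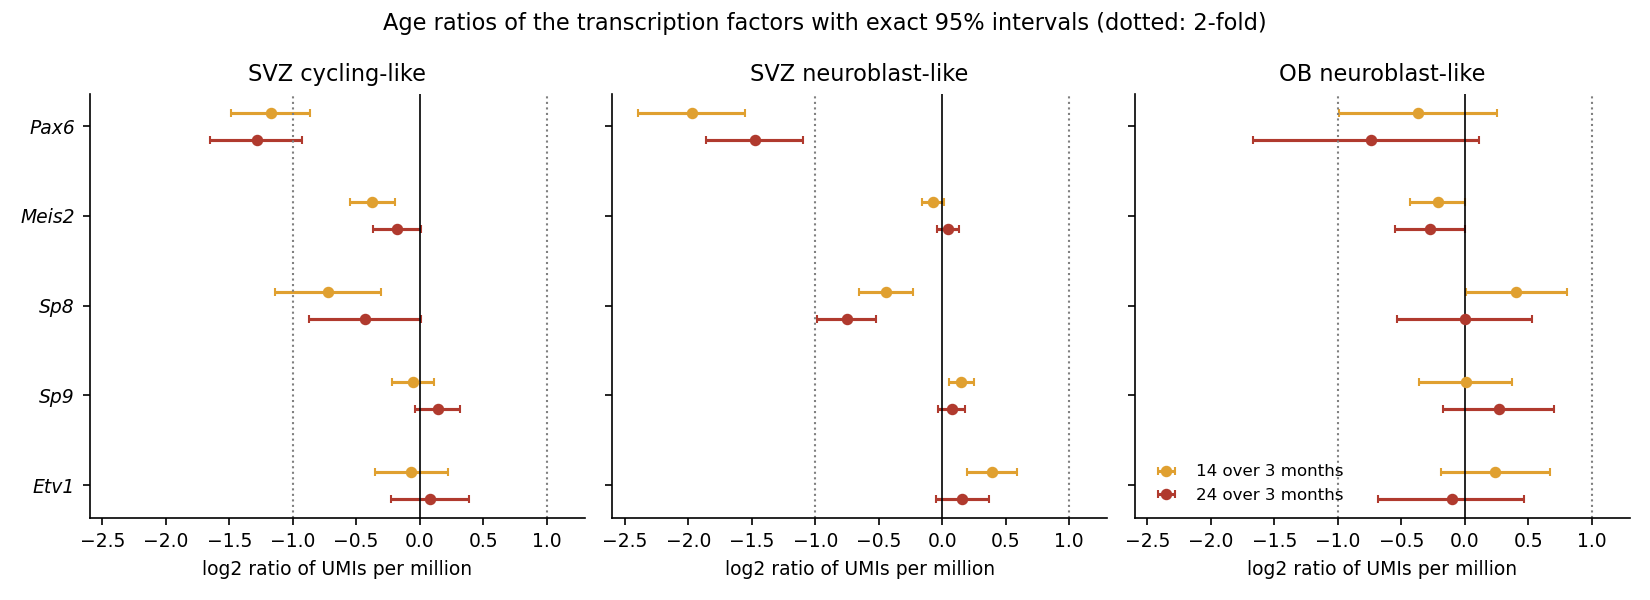
Log2 ratio of the level at 14 or 24 months over that at 3 months (x axis) for the transcription factor genes (y axis) in SVZ and OB classes. Bars are exact 95% intervals, the solid line at 0 marks no difference, and the dotted lines mark 2-fold. Pax6 in the SVZ lies between -1.17 and -1.97, and the other SVZ values lie between -0.75 and 0.39.

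The other genes of the pathway were mostly within 2-fold. Of 20 further transcription factors of the OB interneuron lineage, 12 were measured in SVZ neuroblast-like cells, with a median log2 ratio of 24 over 3 months of 0.09 beside 0.01 over all genes. Nr4a2, a nuclear receptor of dopaminergic neurons, was the 1 factor past 2-fold, with 20 UMIs at 3 months, 36 at 14 months and 72 at 24 months. Its ratio of 24 over 3 months was 1.81 (1.08 to 2.61) and that of 24 over 14 months 1.17 (0.57 to 1.79). At 14 over 3 months 0 of 12 factors were past 2-fold, and in cycling-like cells 0 of 11 were, at either age. The highest of the list, the distal-less factors Dlx2 and Dlx1 that drive GABAergic fate, were at 966, 1152 and 846 CPM and at 823, 879 and 756 CPM in neuroblast-like cells. In OB neuroblast-like cells Tshz1, a zinc-finger factor needed for the spread of cells within the bulb, was the 1 of 6 measured factors past 2-fold at 14 over 3 months, with 41 UMIs at 3 months, 20 at 14 months and 16 at 24 months (log2 ratio of 14 over 3 months -1.53, -2.38 to -0.73).

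The 4 GABA genes were all measured in SVZ neuroblast-like cells and 0 were past 2-fold, with Gad2 at 450, 474 and 408 CPM and Gad1 at 351, 372 and 388 CPM. Of the 5 dopamine genes only Nr4a2, which is also in the first list, reached 50 UMIs, and Slc18a2, the vesicular monoamine transporter, had 8, 5 and 3 UMIs. Of 10 further subtype markers 3 were measured at 14 and 24 over 3 months, and Npy, which encodes neuropeptide Y, was past 2-fold with 49 UMIs at 3 months, 11 at 14 months and 14 at 24 months. Its log2 ratios were -2.36 (-3.45 to -1.40) and -1.84 (-2.81 to -0.96). Synpr, which encodes synaptoporin, and Tpbg, a marker of a granule cell subset, were at 127, 141 and 130 CPM and at 18.0, 21.5 and 26.3 CPM. The 7 genes of migrating neuroblasts were all measured and 0 were past 2-fold, and Tubb3 and Sox11 were at 3959, 3676 and 3142 CPM and at 2567, 2311 and 1908 CPM. Dcx, Sox11, Cd24a, Igfbpl1 and Tubb3 of this list were also the 5 markers that named the neuroblast-like class, so their levels are not independent of it.

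SVZ neuroblast-like cells with a Pax6 UMI were compared with the other neuroblast-like cells of their library. This split uses Pax6 itself, so only the other genes are given. Meis2 was higher in Pax6-detecting cells by 0.18 (0.05 to 0.31), 0.34 (0.18 to 0.51) and 0.29 (0.15 to 0.44) on the log2 scale at 3, 14 and 24 months, and Sp8 by 0.57 (0.27 to 0.86), 0.62 (0.18 to 1.03) and 0.27 (-0.19 to 0.72). Sp9 was lower in them, at -0.19 (-0.36 to -0.03), -0.34 (-0.57 to -0.11) and -0.19 (-0.39 to 0.00). Etv1 was lower at 3 months, at 182 against 303 CPM (-0.73, -1.11 to -0.37), and its ratios were 0.02 (-0.38 to 0.40) and -0.32 (-0.74 to 0.07) later. At 3 months Prokr2, a receptor for a migration cue, and Foxp2, a forkhead factor, were also lower, by -1.61 (-2.81 to -0.58) and -1.15 (-1.81 to -0.55), and both are among the leading genes of neuroblast-like cluster 2. Of the listed transcription factors, Vax1 and Nr2f2 were lower at 3 months too, at -2.19 (-4.14 to -0.72) and -2.06 (-4.43 to -0.35). They had 4 and 3 UMIs in the Pax6-detecting cells. Nr2f1 was higher there, at 0.98 (0.31 to 1.65). At 14 and 24 months the intervals of Prokr2, Foxp2, Vax1, Nr2f2 and Nr2f1 included no difference. In cycling-like cells the same split gave no constant order. Sp8 was at 0.59 (-0.07 to 1.31), -0.92 (-1.62 to -0.25) and 1.26 (0.50 to 2.07), Sp9 at -0.05 (-0.31 to 0.23), -0.53 (-0.76 to -0.31) and 0.68 (0.42 to 0.94), and Etv1 at -0.22 (-0.67 to 0.25), -0.44 (-0.84 to -0.05) and 0.74 (0.28 to 1.21). Median depth was 4284 UMIs in the 95 detecting cells and 3934 in the 227 others at 3 months. In thinned cells of that library 7 of 51 Pax6-detecting cells also had Etv1 (13.7%), beside 32.5% of the others, while at 14 and 24 months the order was turned, at 43.5% against 37.6% and 48.0% against 31.7%.

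Neuroblast-like cells of the OB held more of most factors than those of the SVZ from the same mice. At 3, 14 and 24 months the quality limits had kept 38.8%, 39.3% and 31.4% of all OB cells. For the SVZ these shares were 69.5%, 67.7% and 62.8%. Here a gene needed 50 UMIs over all 6 sums together, which 6 of the 8 genes reached. Pax6, Meis2, Sp8, Etv1 and Calb2 had all 3 OB values above all 3 SVZ values, where 7.71% of 7691 genes did. Sp9 had all 3 below, where 12.0% did. Levels in these cells were among the values that chose the genes, so nothing follows from the counts about the members as a set. For Pax6 the lowest OB value was 165 CPM at 24 months, beside 160 CPM in the SVZ at 3 months. For Meis2 the nearest values were 1703 and 1673 CPM, both at 24 months. Th and Calb1 had too few UMIs. Pax6 was higher in the OB by 0.78 (0.28 to 1.26) at 3 months, 2.38 (1.81 to 2.94) at 14 months and 1.51 (0.64 to 2.30) at 24 months on the log2 scale. Sp8 stood at 514, 680 and 516 CPM in the OB, above its SVZ level by 0.76 (0.40 to 1.11), 1.61 (1.32 to 1.89) and 1.52 (1.05 to 1.96). Its OB level was higher at 14 than at 3 months by 0.40 (0.01 to 0.81), the opposite direction to the SVZ. Cluster 3, with Sp8 among its top 10 genes, gave 9 of 47 OB neuroblast-like cells at 3 months and 26 of 60 at 14 months. The part of this shift in the Sp8 level was not tested.

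Etv1 was at 464, 547 and 433 CPM in the OB, above the SVZ by 0.81 (0.43 to 1.18), 0.66 (0.37 to 0.95) and 0.56 (0.06 to 1.02). Meis2, at 2057, 1774 and 1703 CPM, differed little, by 0.34 (0.17 to 0.51), 0.20 (0.04 to 0.35) and 0.03 (-0.21 to 0.25). Sp9, at 677, 680 and 815 CPM, was lower than in the SVZ, by -0.68 (-0.98 to -0.40), -0.83 (-1.07 to -0.59) and -0.49 (-0.84 to -0.16). For Calb2 the order rests on 3, 24 and 2 UMIs in the OB and 12, 10 and 8 in the SVZ, and its ratios were 1.06 (-1.40 to 2.95), 4.03 (2.92 to 5.26) and 1.82 (-1.46 to 4.14), so that only the 14-month interval was without 0. By the share of cells with a UMI, the OB values of Pax6, Sp8, Etv1 and Calb2 were all above the SVZ values. This order was not counted over all genes, so nothing follows from it about the members.

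**Figure D4:**
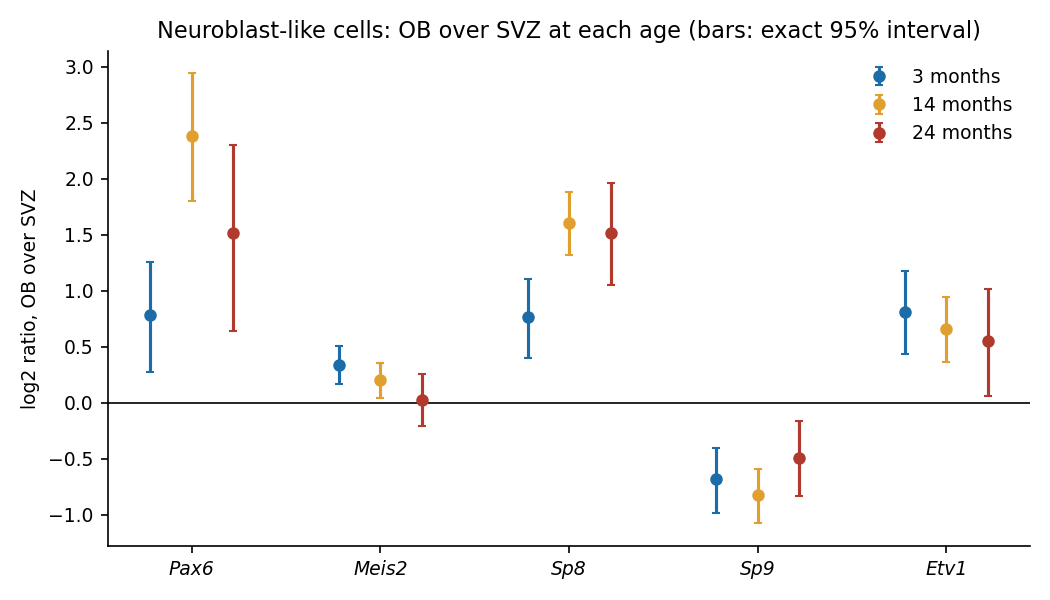
Log2 ratio of the level in OB neuroblast-like cells over that in SVZ neuroblast-like cells (y axis) for 5 transcription factor genes (x axis), coloured by age, with exact 95% intervals as bars. Sp9 lies below 0 at each age, from -0.83 to -0.49, and Pax6, Sp8 and Etv1 lie above 0, with Pax6 at 2.38 at 14 months.

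Markers of other classes differed between these OB and SVZ cells too. The 5 astrocyte markers summed to 157, 187 and 341 CPM in OB and to 45.0, 31.9 and 49.0 CPM in SVZ neuroblast-like cells, beside 11408 to 12471 CPM in OB astrocyte-like cells, which themselves held Pax6. The part of the astrocyte markers in the region differences was not tested. The 5 neuroblast markers summed to 11322 to 12012 CPM in the OB and 8379 to 9991 CPM in the SVZ.

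Neuron-like cells of the OB held less of most factors than its neuroblast-like cells, by an amount that depended on the clusters compared. Clusters 21 and 23, which lack Gad1, gave 7, 19 and 3 of the neuron-like cells at the 3 ages, and cluster 21 had Eomes, a factor of excitatory neurons, in 91.3% of its cells. The interneuron cluster alone is therefore set against the neuroblast-like cells first. At 3 and 14 months the log2 ratios were -0.35 (-0.60 to -0.11) and -0.30 (-0.58 to -0.03) for Meis2, -1.83 (-2.58 to -1.14) and -1.37 (-2.01 to -0.79) for Sp8, and -2.52 (-3.33 to -1.79) and -1.60 (-2.28 to -0.97) for Sp9. Etv1 stood at -2.98 (-4.16 to -1.97) and -4.87 (-7.93 to -2.98), the latter from 2 UMIs. For Pax6 both intervals included no difference, at -0.59 (-1.33 to 0.13) and -0.51 (-1.43 to 0.33). At 24 months the ratios of Meis2, Sp8, Sp9 and Etv1 were again below 0, from -0.38 to -2.17, and that of Pax6 was 1.39 (0.47 to 2.35). Over the whole neuron-like class the ratios at 3 and 14 months were -0.89 and -1.70 for Meis2 and -1.13 and -1.91 for Pax6.

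Within the interneuron cluster Pax6 was at 184 CPM at 3 months (122 to 265), 150 CPM at 14 months (85.7 to 243) and 431 CPM at 24 months (293 to 612), with a UMI in 10 of 32, 7 of 21 and 6 of 13 cells. Meis2 had a UMI in every cell of it, at 1612, 1442 and 1308 CPM. Sp8 was at 144, 262 and 264 CPM, Sp9 at 118, 225 and 181 CPM, and Etv1 at 59.0, 18.7 and 153 CPM from 9, 2 and 11 UMIs. The 24-month values rest on 13 cells. For Pax6, 26 of the 31 UMIs at 24 months came from 3 cells, beside 16 of 28 and 12 of 16 UMIs from the 3 highest cells at 3 and 14 months. Without the 3 highest cells of each library the Pax6 levels were 86.7, 43.7 and 134 CPM, the last from 5 UMIs in 10 cells. Made without the percentage limits on cells, the cluster held 71, 39 and 14 OB cells with 30, 22 and 26 Pax6 UMIs. The 3 highest cells of each library then held 16, 13 and 26 of these UMIs. Without those cells the levels were 77.5, 90.3 and 0 CPM, so the order of the ages was not kept.

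Th, which encodes tyrosine hydroxylase, the rate-limiting enzyme of dopamine synthesis, was read almost only in that cluster. It had 13 UMIs in 6 of 32 cells at 3 months (18.8%, 7.21% to 36.4%), 23 UMIs in 7 of 21 cells at 14 months (33.3%, 14.6% to 57.0%) and 86 UMIs in 4 of 13 cells at 24 months (30.8%, 9.09% to 61.4%). The 6 detecting cells at 3 months held 5, 3, 2, 1, 1 and 1 UMIs, the 7 at 14 months 10, 3, 3, 3, 2, 1 and 1, and the 4 at 24 months 33, 27, 21 and 5. The shares overlapped between ages, while the 3 highest cells all came from the 24-month library, so its 1197 CPM rests on 3 cells. These 3 cells were deep, with 13014, 11958 and 9588 UMIs in all, and they also held the 3 highest Pax6 counts of their library's cluster, 8, 11 and 7 UMIs. After thinning to 1500 UMIs the shares of cells with Th were 9.38%, 14.3% and 30.8%. None of the 397 OB astrocyte-like cells had a Th UMI, which allows a share of up to 0.756%, at a median of 3958 UMIs against 4294 in the interneuron cluster. In neuroblast-like cells 1 of 1075 SVZ cells and 2 of 131 OB cells had a Th UMI, and of 14 OB OPC-like cells 1 did.

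Calb2, which encodes calretinin, was found in more cells of the cluster. It had 113 UMIs in 9 of 32 cells at 3 months (28.1%, 13.7% to 46.7%), 189 UMIs in 12 of 21 cells at 14 months (57.1%, 34.0% to 78.2%) and 212 UMIs in 8 of 13 cells at 24 months (61.5%, 31.6% to 86.1%). The level in the cluster was 741, 1770 and 2950 CPM. The 3 highest cells of each library held 93, 115 and 133 of the UMIs, and the other cells were at 139, 790 and 1372 CPM. The detecting cells held 1 to 39 UMIs at 3 months, 1 to 46 at 14 months and 4 to 68 at 24 months. At 14 months 6 of the 12 held a single UMI, so that cells with 2 or more UMIs, a limit chosen after the values were seen, numbered 8 of 32, 6 of 21 and 8 of 13. The share with 1 or more UMIs was lowest at 3 months, and the 3 intervals overlapped. Without the percentage limits on cells the interneuron cluster held 71, 39 and 14 OB cells at medians of 1702, 1460 and 2532 UMIs. Calb2 was then in 9.86%, 33.3% and 28.6% of its cells, with 2 or more UMIs in 8.45%, 7.69% and 21.4%. The 3 highest cells of each library then held 28 of 36, 70 of 80 and 132 of 133 Calb2 UMIs. The other cells were at 43.8, 99.4 and 22.2 CPM, so the order of the ages was not kept. In OB astrocyte-like cells 6 of 397 had a UMI, or 1.51%. Calb2 was not limited to neurons within the OB, since 8 of 14 OPC-like cells there had a UMI, or 57.1%, at a median of 5979 UMIs. Over the 3 ages 29 of the 66 interneuron-cluster cells did, or 43.9%, at a median of 4294 UMIs. In neuroblast-like cells 20 of 1075 SVZ cells (1.86%) and 11 of 131 OB cells (8.40%) did.

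For the OB neuron-like cells as a whole, 3 members were measured at 14 over 3 months and 2 were lower past 2-fold, where 6.24% of 1939 genes were past it in either direction. These were Meis2, at -1.02 (-1.32 to -0.72), and Calb2, at -1.01 (-1.25 to -0.77). In the interneuron cluster alone Meis2 was at -0.16 (-0.46 to 0.14) and Calb2 was higher, at 1.26 (0.91 to 1.61), where 5.08% of 985 genes were past 2-fold. A single 3-month cell of cluster 23, led by Ndnf and Reln, held 243 of the 370 Calb2 UMIs of that library's neuron-like cells. The interneuron cluster gave 32 of 39 neuron-like cells at 3 months and 21 of 40 at 14 months, and it held all Meis2 UMIs of the OB neuron-like cells.

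Calb1, which encodes calbindin, was rare. It had 16, 26 and 1 UMIs in the interneuron cluster, from cells with 10 and 6 UMIs at 3 months, 13 and 13 at 14 months and 1 at 24 months. These are 2 of 32, 2 of 21 and 1 of 13 cells (6.25%, 9.52% and 7.69%), and differences between ages were not detectable at this number of cells. In OB astrocyte-like cells 1 of 397 had a Calb1 UMI.

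**Figure D5:**
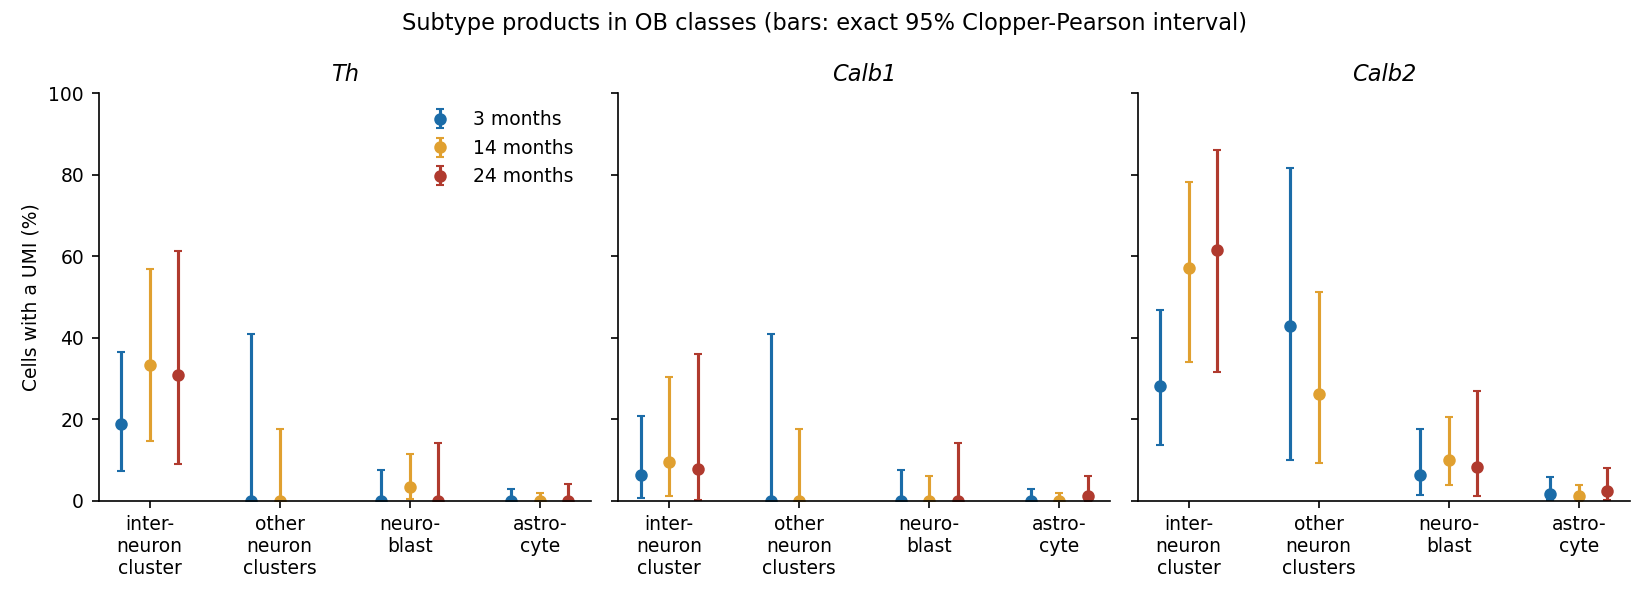
Share of cells with a UMI of Th, Calb1 or Calb2 in percent (y axis), with a panel per gene and OB classes on the x axis. The classes are the interneuron cluster, the other neuron clusters, neuroblast-like and astrocyte-like cells, coloured by age (3, 14 and 24 months), with exact 95% Clopper-Pearson intervals as bars. In the interneuron cluster, from 32, 21 and 13 cells, Calb2 goes from 28.1% to 57.1% and 61.5%. Th there stays between 18.8% and 33.3%, Calb1 stays under 10%, and the intervals of each gene overlap between ages.

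Th was more often detected in interneuron-cluster cells that also had Pax6. Of the 66 OB cells 17 had Th, 29 Calb2 and 5 Calb1, and 8 had both Th and Calb2, beside 7.47 from the product of the shares. Calb1 and Calb2 were together in 0 cells, beside 2.20 from that product. Pax6 was in 12 of the 17 Th cells, so that 52.2% of the 23 Pax6-detecting cells and 11.6% of the others had Th. The order was the same in each library, at 40.0% against 9.09%, 71.4% against 14.3% and 3 of 6 cells against 14.3%. Pax6 also went with Sp9, in 17 of 23 cells (73.9%) against 32.6% of the others, and with Calb2, in 60.9% against 34.9%. These shares are at full depth, where a deeper cell is more likely to show both genes, and the part of depth was not tested.

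The genes of dopamine handling given here were sparse. They were named after their values were seen, and Slc18a2 of the same list is not among them. Gch1, for the cofactor of tyrosine hydroxylase, was in 4 cells, Slc6a3, the dopamine transporter, in 2 and Ddc, the next enzyme of the pathway, in 1, and all of them had Th. Trh, for thyrotropin-releasing hormone, was in 4 cells, all with Th. Nr4a2 was in 10 cells, 5 with Th. Gad1 was in 15 of the 17 Th cells and in 27 of the 29 Calb2 cells.

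Calb1 and Calb2 also had high levels in cells outside the olfactory lineage. In the DG, Calb1 was at 402 CPM in 14 excitatory neuron-like cells at 3 months and at 322 CPM in 7 at 14 months, and Calb2 was at 989 CPM in 107 excitatory progenitor-like cells at 3 months and at 1327 CPM in 19 at 14 months. Calb1 and Calb2 are in common use as markers of mature and immature granule neurons of the DG. Calb2 was further detected in OPC-like cells, with 74.3 to 162 CPM and 41.7% of 852 DG cells. Th had 0 UMIs in DG excitatory progenitor-like and OPC-like cells. In the excitatory progenitor-like cells of the DG, Pax6 was at 98.8 CPM (75.2 to 127) and 107 CPM (53.6 to 192) at 3 and 14 months.

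Levels over the 11 sums of cycling-like, neuroblast-like and neuron-like cells of SVZ and OB libraries with at least 20 such cells were used to name the genes most alike to each member among 7962 genes by Pearson's r. The sums share libraries, depth and, for each age, mice, so r is a description. Genes most like Pax6 were Sf3b3 (0.86) and Gps1 (0.83), and those most like Meis2 were Mkrn1 and Dlgap4 (both 0.98). For Sp8 they were Tmem169 (0.97) and Gba2 (0.95), for Sp9 Cnn3 and Trib2 (both 0.99), for Etv1 Ccdc88a and Sh3bgrl (both 0.97), and for Calb2 Bsg (0.99) and Ndufa4 (0.98). Among the members Sp9 and Etv1 (0.88), Meis2 and Sp8 (0.87) and Sp8 and Etv1 (0.75) were most alike, Pax6 reached at most 0.50, with Sp8, and Sp9 and Calb2 were opposed (-0.87). Th and Calb1 had too few UMIs for this measure.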

How the data were processed

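Single-cell RNA of GFP-sorted SVZ, OB and DG cells was read from the deposited count matrices, 1 for each of 9 libraries, which the authors made with Cell Ranger 3.0.2 on mm10, counting UMIs per gene without further normalization. The 8 genes, the gene lists and the class markers were chosen with earlier results of these data known. Cells with a UMI of both Cx3cr1 and Aif1, markers of microglia, were left out. Of the others, cells with 75 to 4000 genes and at most 1.5% mitochondrial and 15% ribosomal protein log-counts were kept. They were normalized with scran 1.30.0 and clustered with Seurat 5.3.0 in R 4.3.3 on 2000 variable genes, 20 components and 10 neighbours at resolution 1, leaving out 38 listed genes. Doublets were called with Scrublet in scanpy 1.11.5 (80 of 7402 cells) and removed only in an alternative. A class was a candidate for a cluster where at least 3 of its 5 markers were in at least 20% of the cluster's cells. The cluster took the candidate whose markers had the highest mean fold over the other cells. It stayed unnamed if another class had more markers among its top 10 genes. It also stayed unnamed if its cells were shallow and its top 10 genes held no marker of its own class. The replication cluster (at least 5 of its top 10 genes in an S-phase list) and the interneuron cluster (Gad1 in at least 50% of cells) were set after the data were seen.

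UMIs were summed by class and library with Python 3.11.15, numpy 2.4.6 and scipy 1.17.1. Levels carry exact Poisson, shares Clopper-Pearson and ratios conditional binomial 95% intervals, which cover counting error only. With 1 pool per region and age no test was made. A gene counted as measured if the 2 sums together held 50 UMIs or more, from 20 cells or more in each library, and called past 2-fold. A share of 0 was given the limit of 3 counts. Named were the 8 genes, list genes past 2-fold, the 2 highest of each list in SVZ neuroblast-like cells and the 2 genes most alike to each member (Pearson's r on log2(CPM + 10)). Genes of the Pax6 split and of co-detection were named after their values were seen. The scripts were tested on simulated data. The alternatives changed the quality limits, class rules, resolution, variable genes, doublets, totals, cell weights, thinning and UMI minimum.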

Additional observations from a re-analysis of the deposited data

Results flagged for a closer look

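The Sp8 level summed over neuroblast-like cells moved in opposite directions in the regions between 3 and 14 months. The log2 ratio of 14 over 3 months was -0.44 in the SVZ (-0.65 to -0.23) and 0.40 in the OB (0.01 to 0.81). The mix of clusters in the class moved as well. Cluster 3, with Sp8 among its top 10 genes, held 9 of 47 OB neuroblast-like cells at 3 months and 26 of 60 at 14 months. In the SVZ it held 125 of 322 and 111 of 436 cells. The part of this mix in the ratios was not tested. The difference between the regions was not tested, since each rests on 1 library per age.

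Signal of 2 members was also found in cells of clusters that were left unnamed and enter no comparison. Pax6 was at 160 CPM in such cells of the DG at 24 months (106 to 233). Of these 30 cells 29 were in cluster 9, led by Hopx, with Gfap in 73.9% of its cells. Etv1 was at 729 CPM in such cells of the OB at 3 months (633 to 835). Of these 33 cells 31 were in cluster 20, which had the oligodendrocyte marker Mbp in 100% of its cells. Each group has 1 library, so libraries were not compared within groups.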

How the results depend on the processing

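No paired analysis was possible because each age has 1 pool of mice, so no group has a second pair. The OB over SVZ ratios were taken within the pool of each age, and no test was made over the 3 pools. No library could be left out for the same reason. Over the alternatives the Pax6 ratio in SVZ cycling-like cells ranged from -1.44 to -1.10 (14 over 3 months) and from -1.41 to -1.09 (24 over 3 months), and in neuroblast-like cells from -2.13 to -1.66 and from -1.48 to -1.32. The alternatives on the replication cluster, cluster 19, cluster weights and the interneuron cluster alone, and the limit of 2 UMIs, were chosen after seeing the data.

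The log2 ratio of the share of cycling-like cells with Pax6 at 14 over 3 months was -0.58 at full depth and -1.06 after thinning. With classes from marker gates, 1 gene (Calb2, lower) was past 2-fold in OB neuroblast-like cells at 14 over 3 months in place of 0. In OB neuron-like cells the 2 genes past 2-fold became 1 (Meis2) without percentage limits, 1 (Calb2, higher) in the interneuron cluster alone, 0 with totals without ribosomal and mitochondrial UMIs and 0 with every cell weighted equally. That weighting turned the Calb2 ratio from -1.01 to 0.00878. Thinned, 1 gene (Sp9) in place of 0 had every OB share below every SVZ share, an order not counted over all genes. The Calb2 share averaged over the 3 libraries in all OB neuron-like cells was 45.3%, and 26.1% without percentage limits. The share of all genes past 2-fold in SVZ neuroblast-like cells was 6.68% and 7.02% with at least 10 UMIs and 0.418% and 0.393% with at least 200 UMIs, at 14 and 24 over 3 months. Apart from what a higher or lower UMI minimum does by construction, the cause was not tested. The neuron-like values rest on 16 to 40 OB cells per library.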
